A study of Mus musculus with 6 samples.

Results

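The account covers 10 liver genes of the oxidative stress response, chosen by name from the deposited table: Nfe2l2, which encodes the transcription factor NRF2, and 9 genes of antioxidant defence, Nqo1, Gclc, Gclm, Txnrd1, Hmox1, Gpx1, Cat, Sod1 and Sod2. Each name matched 1 row, so the 10 genes are 10 of the 33495 listed, and all 10 passed the filter on low counts that left 11794 genes for testing. The libraries were made from RNA selected for its 5′ cap, taken from livers of male C57BL6 mice aged 2 months. Of the 6 libraries, 3 came from wild-type animals and 3 from animals with the genotype SHP -/- knockout. SHP is the small heterodimer partner, an atypical nuclear receptor encoded by Nr0b2, which lacks a domain for binding DNA and holds back other nuclear receptors. No treatment is given for either group, and the labels do not say how the knockout allele was made or whether the controls were littermates.

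NRF2 is made continuously and, in unstressed cells, is bound by KEAP1, which hands it to a CUL3 ubiquitin ligase for destruction. Electrophiles and oxidants modify KEAP1, after which NRF2 enters the nucleus, pairs with a small MAF protein and binds antioxidant response elements in its target genes. Classical targets make glutathione (Gclc, Gclm), reduce quinones (Nqo1), recycle thioredoxin (Txnrd1) and break down heme (Hmox1). Superoxide dismutases, catalase and glutathione peroxidase form the abundant enzyme layer that removes superoxide and peroxides in hepatocytes. Transcript levels do not report NRF2 protein or its activity.

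Library totals ran from 4494353 to 7225842 counts, and levels are given as CPM, the counts of a gene scaled to a common library size. Nr0b2 itself was lower but still present in the knockout libraries, at 6.60, 7.05 and 10.4 CPM against 17.7, 12.3 and 13.4 CPM in wild type (log2 difference −0.81 ± 0.25 SE, limma voom adjusted p = 0.0458). Hepatocyte markers were abundant throughout, with Alb at 48063 CPM or more in every library; of the 8, only Tat passed the test, lower in knockout (log2 difference −0.34, limma voom adjusted p = 0.0301), and not past the threshold in any of the 6 fits without 1 library. Knockout library 2 stood apart in its immediate early genes: the 8 listed summed to 1633 CPM there, against 173 to 450 CPM in the other libraries. Junb, Dusp1 and Zfp36 of that list were called higher in knockout (Junb from a mean of 14.4 to 79.0 CPM, Dusp1 from 97.5 to 190 CPM, Zfp36 from 49.7 to 114 CPM), calls lost under robust variance moderation. That count of 3 became 0 without wild-type library 1 or 2, 1 without wild-type library 3 or knockout library 2, and 7 without knockout library 3. Egr1 and Jun did not pass. Called shares were 42.9% of the 7 immediate early genes tested and 12.5% of the hepatocyte markers, beside 14.7% of all genes tested. The share of counts from mitochondrially encoded genes was 10.2% to 10.3% in wild type against 5.66% to 7.1% in knockout. With library totals taken without them, the same 1 and 2 members counted below were past the threshold in each direction. Genes past the threshold numbered 1734 with all 6 libraries and were fewer whichever library was left out. The drop was largest without wild-type library 3, to 621, against 1061 to 1560 without any other library. Nothing in the labels ties samples to litters. The limma p-values set each group difference against the spread between these samples, moderated over all genes tested.

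Both subunit genes of the enzyme that limits glutathione synthesis were lower in SHP-knockout liver, and the selenium-dependent glutathione peroxidase gene was higher. Gclm fell by 30.0%, Gclc fell by 23.7%, and Gpx1 was 34.4% higher. The other 7 genes did not pass the test, Nfe2l2 among them. So 1 of the 10 was called higher and 2 lower at an adjusted p under 0.05, where 7.90% of all genes tested were called higher and 6.80% lower. The knockout libraries lay entirely above the wild-type libraries for 1 gene and entirely below for 3, against 17.4% and 17.6% of all genes tested. The median log2 difference of the 10 was −0.01, beside −0.00070 over all genes tested, and 5 of the 10 were below zero. In bulk liver RNA, fewer cells of a type and less RNA per cell cannot be told apart.

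**Figure D1:**
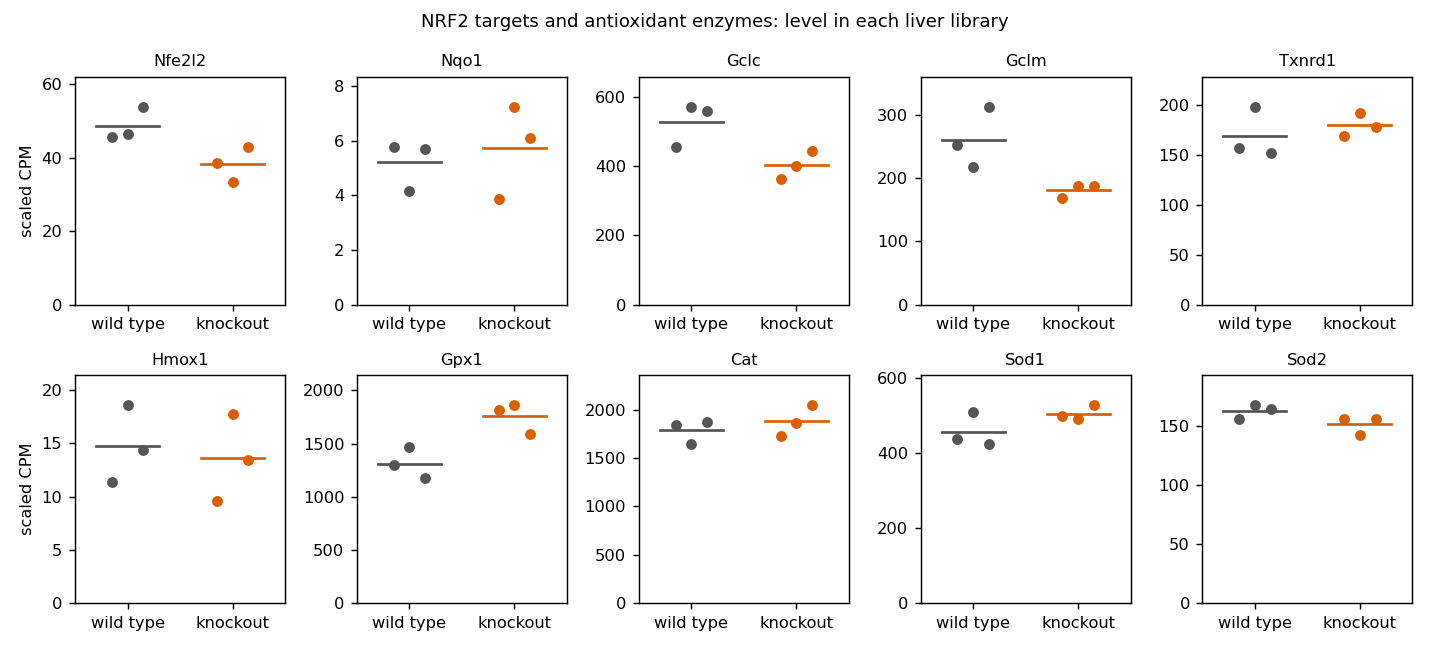
Level of each of the 10 genes in scaled CPM (linear axis from 0), with 1 point per liver library and a line at each group's mean; wild type is grey and knockout orange. The groups are apart for Nfe2l2, Gclc and Gclm, where knockout is lower, and for Gpx1, where it is higher; they overlap for the other 6.

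Nfe2l2 (ENSMUSG00000015839; mm9 chromosome 2, 75513570 to 75542698, minus strand) was at 45.6, 46.5 and 53.9 CPM in wild type and at 38.5, 33.3 and 43.0 CPM in knockout. The groups did not overlap, with knockout lower throughout. The log2 difference was −0.34 ± 0.14 (SE; 95% interval −0.64 to −0.04), and it missed the threshold after adjustment (limma voom adjusted p = 0.117). Across every alternative fit the adjusted p of this gene ran from 0.0898 to 0.355, so the difference is given here as a value and not as a call.

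The sequences below come from the RefSeq promoter table on GRCm38.p6, in windows of 300 bases that reach 250 bases before the annotated start. They are shown because the core letters of the antioxidant response element, TGACNNNGC, were searched for in them on both strands. Of the 10 genes 8 had an entry, in 10 windows, and Gclc and Hmox1 had none. The letters stood in 4 of the 10 windows, 1 each for Nfe2l2, Gclm, Txnrd1 and Sod1, and in 12.4% of all 32851 windows of the same length. They were not found in the windows of Nqo1, Gpx1, Cat and Sod2, or in the other 2 windows of Txnrd1. Bases outside the windows were not searched, so a gene without a match here may hold the letters elsewhere. Each stretch is printed on the strand of its gene with the match in capitals; for Gclm, Txnrd1 and Sod1 the match is on the opposite strand, so the capitals are its reverse complement. TGAC also begins the AP-1 letters TGACTCA, which overlap the searched letters. Of the 4 genes, Gclm was called and the other 3 were not, and Gpx1 was called with no match in its window.
Nfe2l2 (chr2:75704871-75704913, minus strand, match at −240 to −232 from the start): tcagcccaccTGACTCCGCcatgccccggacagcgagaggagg
Gclm (chr3:122245399-122245455, plus strand, match at −134 to −126): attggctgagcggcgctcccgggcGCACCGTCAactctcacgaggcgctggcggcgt
Txnrd1 (chr10:82859090-82859146, plus strand, match at −92 to −84): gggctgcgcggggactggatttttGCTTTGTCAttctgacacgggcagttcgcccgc
Sod1 (chr16:90220682-90220738, plus strand, match at −56 to −48): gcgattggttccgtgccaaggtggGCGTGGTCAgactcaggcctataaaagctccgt

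Gclc encodes the catalytic subunit of glutamate-cysteine ligase, which joins glutamate to cysteine in the first and rate-limiting step of glutathione synthesis. Gclc (ENSMUSG00000032350; mm9 chromosome 9, 77602342 to 77642292) was at 455, 572 and 559 CPM in wild type and at 362, 402 and 443 CPM in knockout. The groups did not overlap, with the gap between them narrow: the highest knockout library lay just under the lowest wild-type library. Its log2 difference was −0.39 ± 0.12 (SE; 95% interval −0.64 to −0.14; limma voom adjusted p = 0.0393). The call was lost without wild-type library 2 or 3 or knockout library 1 or 2 (adjusted p = 0.119, 0.154, 0.141 and 0.0950), while the log2 difference stayed between −0.50 and −0.32 in every fit that left out 1 library.

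Gclm encodes the modifier subunit, which lowers the amount of glutamate the ligase needs and eases its inhibition by glutathione. Gclm (ENSMUSG00000028124; mm9 chromosome 3, 121948475 to 121972902) was at 252, 218 and 313 CPM in wild type and at 168, 188 and 188 CPM in knockout. All knockout libraries were below all wild-type libraries, and the wild-type libraries were the more scattered, with a coefficient of variation of 18.5% against 6.51%. The log2 difference was −0.51 ± 0.13 (SE; 95% interval −0.79 to −0.24; limma voom adjusted p = 0.0177). Wild-type library 3 was the highest of the 6, and the call was lost without it (log2 difference −0.37, adjusted p = 0.0919) and without knockout library 1 (−0.46, adjusted p = 0.0627).

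Within a library, the ratio of Gclc to Gclm counts does not depend on how libraries are scaled. It was 1.81, 2.62 and 1.78 in wild type and 2.16, 2.13 and 2.36 in knockout. The groups overlapped, and the means of 2.07 ± 0.476 and 2.22 ± 0.124 (SD, n = 3 each) differed by less than the wild-type spread (two-sided exact permutation p = 0.600, also 0.600 adjusted over 3 ratios). A p of 0.1 is the smallest that 3 against 3 libraries can give.

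Among the remaining classical NRF2 targets no call was made, though precision differed between them. Txnrd1, the cytosolic thioredoxin reductase, was at 157, 198 and 152 CPM in wild type and 169, 192 and 178 CPM in knockout. Its groups overlapped, and the 95% interval of its log2 difference (0.10) ran from −0.15 to 0.36. Nqo1, the quinone reductase often read as the sentinel of NRF2 activity, was scarce, with 20 to 36 counts per wild-type and 17 to 45 per knockout library. In CPM it was at 5.78, 4.17 and 5.69 against 3.87, 7.25 and 6.10. At this depth the interval of its log2 difference (0.12) was wide, from −0.56 to 0.80, so changes in either direction within that range were not excluded. Without knockout library 2 its sign turned (−0.02).

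Hmox1, heme oxygenase 1, opens the heme ring and in liver is also made by Kupffer cells, the resident macrophages that clear red cells. Its level was 11.4, 18.6 and 14.4 CPM in wild type and 9.56, 17.8 and 13.4 CPM in knockout, with a log2 difference of −0.10 ± 0.25 (95% interval −0.62 to 0.43; limma voom adjusted p = 0.831). The spread within each group was larger than the distance between the groups, and the sign turned without wild-type library 2 (0.06) or knockout library 1 (0.08). Clec4f, a Kupffer cell lectin receptor, was at 93.9, 130 and 99.7 CPM in wild type and 90.9, 136 and 119 CPM in knockout. For both genes library 2 was the highest of its group and knockout library 1 the lowest of all 6, a pattern that 1 of the 12 Kupffer cell and macrophage markers, Clec4f itself, had in full. Library 2 was the highest of wild type for 4 of the 12, the highest of knockout for 9 and the highest of both for 2, and knockout library 1 was the lowest of all for 5. The 12 markers summed to 429 to 507 CPM in wild type and 436 to 669 CPM in knockout. Of them 3 were called higher (Marco, C1qa and C1qc, with log2 differences of 1.08, 0.73 and 0.65), 0 lower and 9 did not pass, and without wild-type library 3 the count of 3 became 0, without wild-type library 2 or knockout library 2 it became 1. With all 6 libraries the called share of the 12 markers was 25.0%, all higher. Of all genes tested, 14.7% were called, and 7.90% were called higher. Cd5l was at 115, 110 and 99.2 CPM in wild type and 106, 150 and 136 CPM in knockout (log2 difference 0.27). Timd4, a receptor of resident Kupffer cells named here after its values were seen, went the other way, at 9.64 to 12.3 CPM in wild type against 3.87 to 7.32 CPM in knockout, with no overlap (log2 difference −0.80; limma voom adjusted p = 0.0666, not past the threshold). The part of these cells in the Hmox1 values was not tested.

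**Figure D2:**
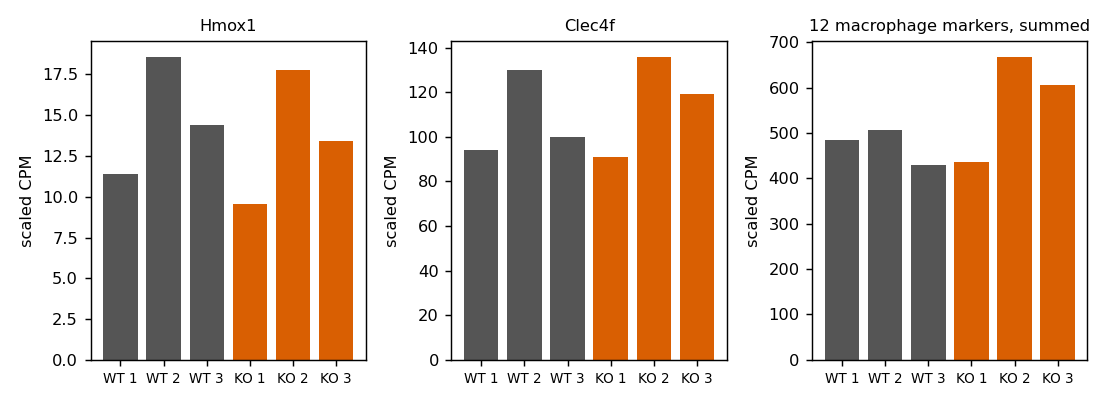
Bars show scaled CPM (linear axes from 0) in each of the 3 wild-type (WT, grey) and 3 knockout (KO, orange) libraries for Hmox1, for the Kupffer cell gene Clec4f, and for the sum of 12 macrophage markers. Hmox1 runs from 9.56 to 18.6 CPM with its groups overlapping. Library 2 is the highest of each group for Hmox1 and Clec4f, which holds for 2 of the 12 markers, and the summed markers overlap between the groups.

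Gpx1, the selenoprotein that reduces hydrogen peroxide with glutathione, was the only one of the 10 called higher. Gpx1 (ENSMUSG00000063856; mm9 chromosome 9, 108241605 to 108242669) was at 1294, 1465 and 1174 CPM in wild type and at 1819, 1861 and 1594 CPM in knockout. The lowest knockout library exceeded the highest wild-type library. Its log2 difference was 0.43 ± 0.11 (SE; 95% interval 0.19 to 0.66; limma voom adjusted p = 0.0190). The call was lost without wild-type library 3 or knockout library 1 or 2 (adjusted p = 0.107, 0.0680 and 0.0647), with log2 differences from 0.35 to 0.51 over the fits that left out 1 library.

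Red cells are also rich in Gpx1 and catalase. Erythroid markers summed to 194 to 221 CPM in wild type and to 209, 194 and 336 CPM in knockout, and 0 of the 5 tested were called in either direction (limma voom; limma trend also gave 0), with 2 at an unadjusted p under 0.05. Beside these 0 calls, 14.7% of all genes tested were called. Leaving out knockout library 1 or 2, however, gave 1 and 2 erythroid calls, all higher. Slc4a1, which encodes the anion exchanger of red cell membranes, had at most 4 counts in any library. Their median log2 difference was 0.60. The 4 globin genes had log2 differences of 0.32 (Hbb-b2), 0.60 (Hba-a1), 0.74 (Hba-a2) and 0.86 (Hbb-b1), each highest in knockout library 3. Hba-a2 was higher in every knockout library than in any wild-type library, which also held for 17.4% of all genes tested. Alas2, the erythroid enzyme of heme synthesis, was at −0.14 and lowest in that library. The part of red cells in the Gpx1 and Cat values was not tested.

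Catalase and both superoxide dismutases were abundant and did not pass the test. Cat, which splits hydrogen peroxide in peroxisomes, was at 1841, 1645 and 1876 CPM in wild type and 1727, 1864 and 2049 CPM in knockout. Sod1, the cytosolic copper and zinc enzyme, was at 438, 510 and 424 CPM against 498, 490 and 528 CPM. Sod2, the manganese enzyme of mitochondria, was at 156, 168 and 165 CPM against 156, 143 and 156 CPM. In each case the groups overlapped. Their log2 differences were bounded more tightly than those of Nqo1 and Hmox1, with 95% intervals of −0.15 to 0.29 for Cat, −0.07 to 0.37 for Sod1 and −0.31 to 0.11 for Sod2 (limma voom adjusted p = 0.676, 0.357 and 0.534).

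Ratios between these enzymes within a library separated the groups in 1 case. Sod2 counts relative to Sod1 were 0.355, 0.329 and 0.388 in wild type and 0.313, 0.292 and 0.296 in knockout, so every knockout library was lower (log2 difference −0.25; two-sided exact permutation p = 0.1, or 0.300 adjusted over the 3 ratios). Cat counts relative to Gpx1 were 1.42, 1.12 and 1.60 in wild type and 0.949, 1.00 and 1.29 in knockout. These overlapped, since knockout library 3 lay above wild-type library 2 (log2 difference −0.35; two-sided exact permutation p = 0.2, or 0.300 adjusted).

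**Figure D3:**
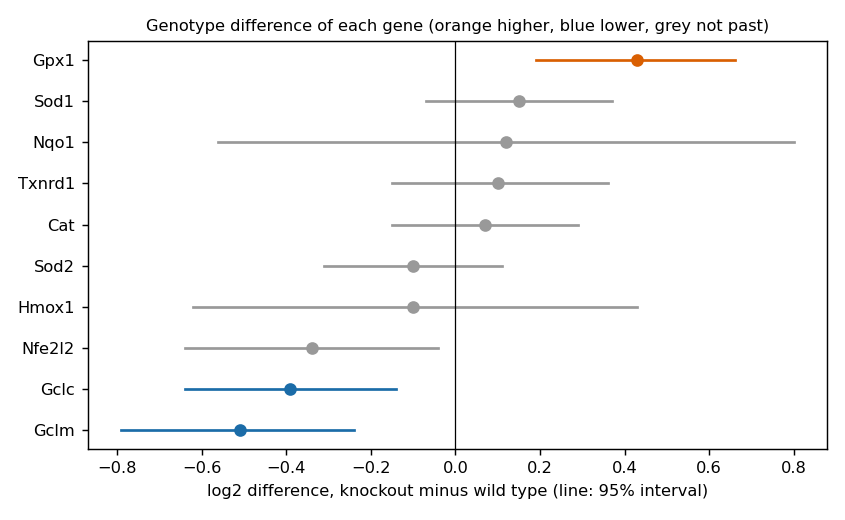
Points are log2 differences (knockout minus wild type, limma voom, 3 libraries per group) of the 10 genes and lines their 95% intervals; orange marks a gene called higher, blue lower, grey not past an adjusted p of 0.05. Gclm (−0.51) and Gclc (−0.39) lie at the low end and Gpx1 (0.43) at the high end; Nqo1 and Hmox1 have the widest intervals.

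Levels of different genes were compared per kilobase of gene model. In wild type, Gpx1 was the highest at 1547 ± 172 CPM per kilobase (SD, n = 3), followed by Sod1 at 761 ± 77.1 and Cat at 684 ± 47.7, whose libraries overlapped. Sod2 (178 ± 6.91) and Gclc (154 ± 18.7) came next. Gclm at 50.8 ± 9.38 and Txnrd1 at 49.4 ± 7.37 did not differ beyond their spread, and Nfe2l2 (12.8 ± 1.20), Hmox1 (9.43 ± 2.29) and Nqo1 (3.36 ± 0.583) were the lowest. The knockout means kept this order except that Txnrd1 (52.6 ± 3.44) stood above Gclm (35.3 ± 2.30), with no overlap of their libraries. In knockout the libraries of Nfe2l2 (10.1 ± 1.27) and Hmox1 (8.68 ± 2.64) overlapped, and those of Sod1 and Cat did not. In the authors' deposited table, which pools the libraries of a group, Gpx1 had an RPKM (reads scaled by gene length and library size) of 984 in wild type and 1333 in knockout, Gclm 33.2 and 23.2, and Gclc 98.9 and 77.9. The authors' deposited table gave adjusted p-values, read from its scores, of 0.00551 for Gclm, 0.0841 for Gpx1 and 0.109 for Gclc.

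Genes with the most similar profile over the 6 libraries were sought among 7053 genes with a mean of at least 10 CPM. Closest to Gclc were Tceb3 and Erbb2ip (Pearson r of log2 CPM 0.993 each), and closest to Gclm was Chd2 (0.997). For Gpx1 they were Serping1 (0.997) and Saps2 (0.996). With 6 points that share a genotype difference, such values describe these libraries and carry no test.

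The genes that control NRF2 are a list of 11, all tested: 1 was called higher, 0 lower and 10 did not pass. Their median log2 difference was 0.08, and 9.09% of them were called, beside 14.7% of all genes tested. Keap1, the adaptor that holds NRF2 for degradation, was the one called higher. It went from 28.6, 32.5 and 25.0 CPM in wild type to 47.1, 40.0 and 45.5 CPM in knockout. All knockout libraries were above all wild-type libraries (log2 difference 0.64 ± 0.15; limma voom adjusted p = 0.0110, and 0.0714 without wild-type library 3, where the call was lost). Sqstm1, an autophagy receptor that binds KEAP1, and the related factor Nfe2l1 had log2 differences of 0.03 and 0.08. By limma voom, 3 of the 11 had an unadjusted p under 0.05, and limma trend also gave 1 higher and 0 lower.

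Other NRF2 target genes numbered 23, of which 20 were tested: 1 rose, 5 fell and 14 did not pass. Their median log2 difference was −0.30, and 16 of the 20 were below zero. Called genes were 30.0% of those tested, beside 14.7% of all genes tested. Aox1, aldehyde oxidase, fell from 134, 203 and 159 CPM to 66.9, 66.2 and 55.6 CPM (log2 difference −1.39 ± 0.15; limma voom adjusted p = 0.000130). Ephx1, microsomal epoxide hydrolase, fell from 403, 522 and 466 CPM to 265, 241 and 235 CPM. The glutathione transferases Gsta2 and Gsta4 also fell, with log2 differences of −1.59 ± 0.30 and −0.86 ± 0.13. These 4 calls held in each fit without 1 library. Ugdh (−0.50) and Abcc3 (0.38), named after their values were seen because they complete the count, lost theirs in 4 of the 6 such fits, each with the highest adjusted p without wild-type library 3 (0.125 and 0.128). The abundant transferase Gsta3 and the exporter Abcc2 had log2 differences of 0.02 and −0.07. Gsta genes have near-identical copies, so their separate values are uncertain. Many of these genes are also targets of the xenobiotic receptors CAR and PXR.

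**Figure D4:**
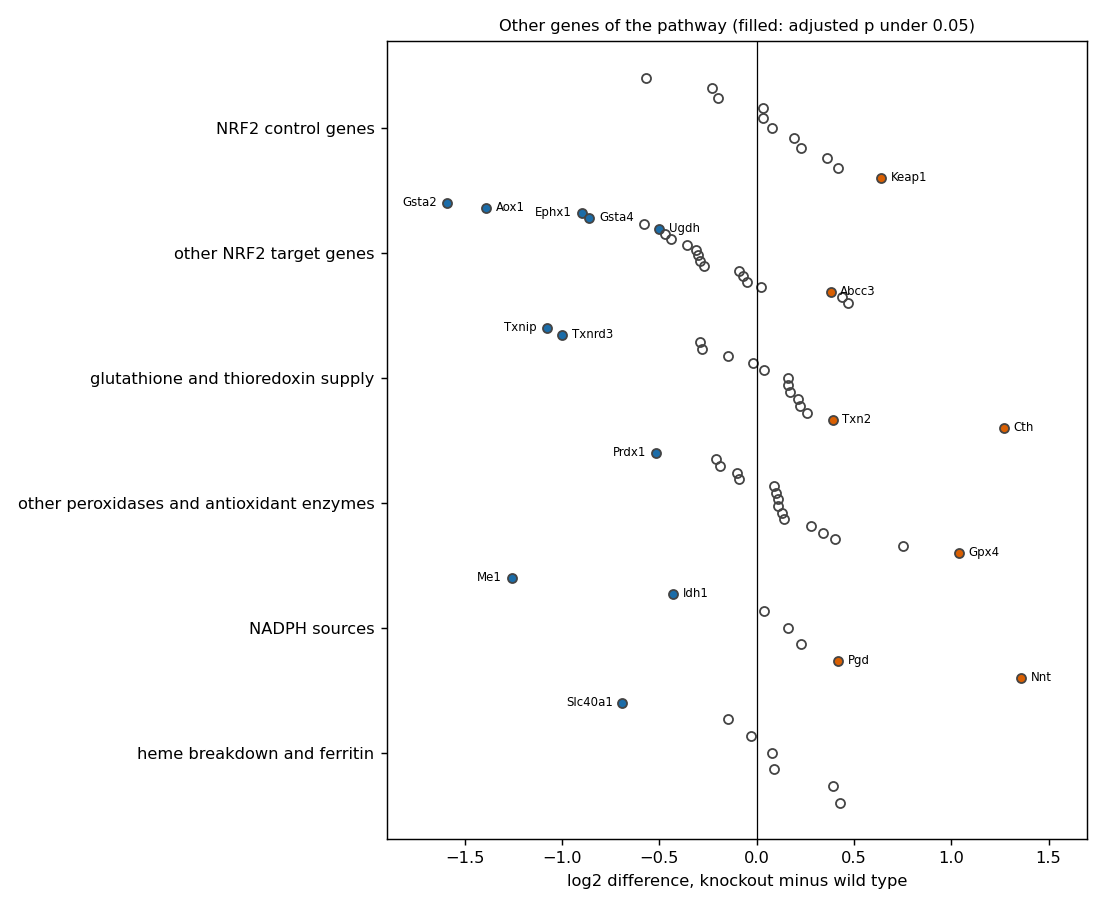
Each point is the log2 difference (knockout minus wild type, limma voom, 3 libraries per group) of 1 tested gene, in rows for the 6 lists of related genes; filled and named points have an adjusted p under 0.05, orange higher and blue lower. Other NRF2 target genes lie mostly to the left of 0, with Gsta2 at −1.59, while Nnt (1.36) and Cth (1.27) are the farthest to the right.

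Genes that supply glutathione and thioredoxin went both ways: of 16 listed, 15 were tested, 2 rose, 2 fell and 11 did not pass. Their median log2 difference was 0.16, and 26.7% of those tested were called, beside 14.7% of all genes tested. Cth, which makes the cysteine that Gclc and Gclm join to glutamate, rose from 428, 382 and 345 CPM to 778, 951 and 1066 CPM (log2 difference 1.27 ± 0.13; limma voom adjusted p = 7.14e-05). It thus moved opposite to both ligase subunits. Txn2, mitochondrial thioredoxin, rose by a log2 difference of 0.39, but stayed past the threshold in only 1 of the 6 fits that left out a library. Txnip, which binds and inhibits thioredoxin, fell from a mean of 111 to 52.8 CPM, and Txnrd3, a further thioredoxin reductase, from 10.9 to 5.66 CPM. Txnip lost its call in 2 of the 6 fits without 1 library and under robust variance moderation (limma voom adjusted p = 0.179). Txnrd3 lost its call in 4 of the 6 fits without 1 library. Txn1, cytosolic thioredoxin, and Oplah, which returns 5-oxoproline to glutamate, had log2 differences of 0.21 and 0.26 and did not pass.

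Among 18 other peroxidases and antioxidant enzymes, 16 were tested, 1 rose, 1 fell and 14 did not pass (median log2 difference 0.11). The called share was 12.5%, beside 14.7% of all genes tested. Prdx1, a cytosolic peroxiredoxin and NRF2 target, fell from 492, 631 and 571 CPM to 345, 423 and 411 CPM. The groups did not overlap (log2 difference −0.52 ± 0.12; limma voom adjusted p = 0.0111, and 0.0597 without wild-type library 3; the call was also lost without knockout library 1). Gpx4, which reduces lipid peroxides, rose from 6.63, 10.2 and 5.06 CPM to 13.9, 17.6 and 12.1 CPM, so it moved in the same direction as Gpx1 at a far lower count (log2 difference 1.04 ± 0.27; adjusted p = 0.0227 in limma voom, lost in 3 of the 6 fits without 1 library). Sepp1, the selenium carrier secreted by hepatocytes, and Prdx6 had log2 differences of −0.10 and −0.09.

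NADPH feeds glutathione and thioredoxin reductases, and 4 of its 7 listed sources were called, 2 in each direction. That was 57.1%, beside 14.7% of all genes tested, in a list chosen with earlier results of these data known. Nnt, the mitochondrial transhydrogenase, rose from 48.1, 59.0 and 57.0 CPM to 137, 134 and 147 CPM, and Pgd of the pentose phosphate path by a log2 difference of 0.42. The call for Pgd was lost whichever of the 6 libraries was left out. Mice of the C57BL/6J substrain carry a deletion within Nnt; the labels give C57BL6 with no substrain, and the part of substrain in the Nnt values was not tested. Me1, malic enzyme, fell by 1.26 and Idh1, cytosolic isocitrate dehydrogenase, fell by 0.43 on the log2 scale; Idh1 lost its call in 3 of the 6 fits without 1 library. Tkt and Taldo1 had log2 differences of 0.16 and 0.23. In heme breakdown and ferritin, around Hmox1, 0 of 7 rose, 1 fell and 6 did not pass by limma voom. Limma trend gave the same counts, and 2 had an unadjusted p under 0.05 by limma voom. The called share was 14.3%, beside the 14.7% of all genes tested. Slc40a1, the iron exporter ferroportin, fell from 135, 161 and 158 CPM to 81.7, 99.9 and 98.9 CPM (log2 difference −0.69 ± 0.12; limma voom adjusted p = 0.00251). Fth1 and Hpx had log2 differences of −0.15 and 0.08.

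The 3 called genes kept their direction in each fit that left out 1 library, with log2 differences of −0.50 to −0.32 for Gclc, −0.63 to −0.37 for Gclm and 0.35 to 0.51 for Gpx1, while their calls came and went. Gclm was past the threshold in 4 of those 6 fits, Gpx1 in 3 and Gclc in 2. Nfe2l2, not called with all 6 libraries, was past it in none, with an adjusted p between 0.0898 and 0.355. Without wild-type library 3 or without knockout library 1, 0 of the 10 genes were called in either direction.

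**Figure D5:**
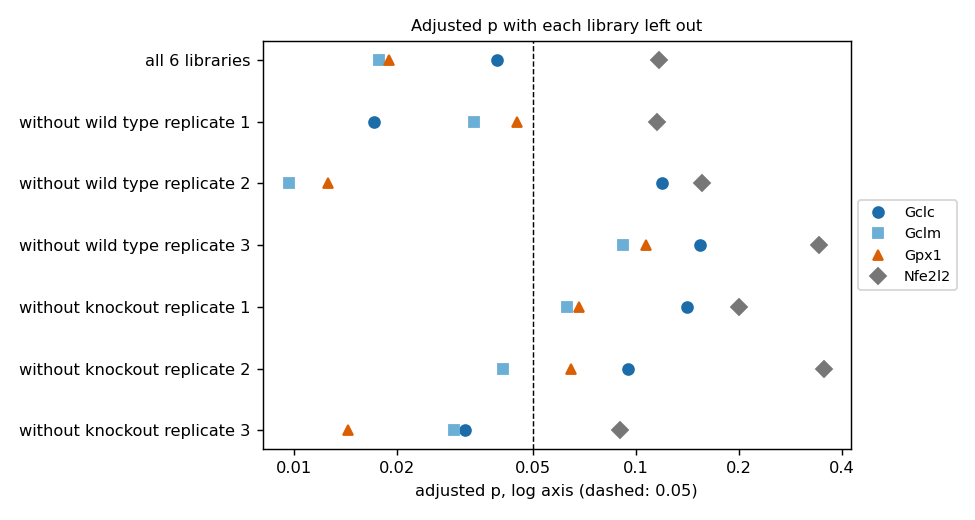
The horizontal axis is the adjusted p (limma voom, log scale, dashed line at 0.05) of Gclc, Gclm, Gpx1 and Nfe2l2 with all 6 libraries and with each library left out in turn. Nfe2l2 is to the right of the line throughout, and all 4 genes are to the right of it without wild-type library 3 (0.0919 to 0.344) or knockout library 1.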

How the data were processed

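The submitters' processing notes name Novoalign 2.05.33 and the build mm9. What counted the reads, on which annotation release and whether by strand was not given in the sources used here; sense and antisense reads cannot be told apart. The authors deposited integer read counts for each Ensembl gene in each library, pooled RPKM values, a pooled log2 ratio, and p-value scores, read as −10 times log10 because recomputed adjusted scores had a median ratio of 1.00 to those deposited. Of 33495 genes, 13901 had empty cells and were left out. Some lines end early, so no whole-column unit was assigned and the values were tested on a log scale instead of by a quasi-likelihood count test. Counts from 1 to 19 were even in 61.8% of cases, so both mates of a pair may have been counted; library depth sets only counting error. Per the labels' protocols, 3 barcoded samples shared a lane; the lane of each library is unknown here, and an effect of lane cannot be told apart from genotype.

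Genes needed 1.83 CPM (10 counts in the median library) in at least 3 libraries and a total of 15 counts. Scaling used TMM factors of 0.963 to 1.03. Log2 CPM with 0.5 added were fitted with limma 3.58.1 (voom) in R 4.3.3, with Benjamini-Hochberg adjustment over the 11794 genes tested and a threshold of 0.05, and the code was tested on simulated data. The members, the 6 related lists and the 4 marker lists were chosen with earlier results of these data known. Named genes were the 10 members, Nr0b2, the 4 largest called differences and 2 most abundant uncalled genes of each list, and the 2 genes most like each called member. Some genes these rules name are not reported here. Start coordinates were raised by 1. Tables were read with pandas 2.3.3 in Python 3.11.15 and drawn with matplotlib 3.10.9.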

Additional observations from a re-analysis of the deposited data

How the results depend on the processing

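Alternatives were median-of-ratios, upper-quartile and total-count scaling, library totals without mitochondrially encoded genes, no and a stricter low-count filter, limma trend with a prior count of 2 or 0.5, robust variance moderation, a replicate block, and leaving out each library. The other scalings, filters and variance models kept the count of members past the threshold at 1 higher and 2 lower. Leaving out 1 library gave 0 to 1 higher, 0 to 2 lower, and 621 to 1560 genes past the threshold in all. Members with groups that do not overlap then numbered 4 to 6. Smaller groups separate more easily for any gene, and no share over all genes is given for those fits. Reversed signs were those of Nqo1 without knockout library 2 (−0.02, with a range of −0.02 to 0.32 over the fits that left out 1 library) and of Hmox1 without wild-type library 2 (0.06) or knockout library 1 (0.08, range −0.27 to 0.08); the cause was not tested. Nqo1 was too scarce for the stricter filter.

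Over the fits without 1 library, NRF2 control genes had 0 to 2 higher and 0 to 1 lower, other NRF2 targets 0 to 2 higher and 4 to 5 lower, glutathione and thioredoxin supply 1 to 2 higher and 0 to 2 lower, peroxidases 0 to 1 in each direction, and NADPH sources 1 higher and 1 to 2 lower. NADPH sources had 1 higher under total-count or upper-quartile scaling, no filter or the replicate block. NRF2 control genes had 2 higher, and glutathione and thioredoxin supply 1 lower, under the stricter filter or robust moderation; the cause was not tested.

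With the replicate block, 1736 genes passed, other NRF2 targets had 2 higher, and Gclc, Gclm and Gpx1 kept their calls. Same-numbered libraries did not deviate together (r = −0.0187, −0.021 and −0.0244), and no library correlated best with its own number. With 3 libraries per group, such values cannot show whether same-numbered libraries shared a litter, lane or preparation.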
